A study of Drosophila melanogaster with 9 samples.

Results

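The peptidoglycan recognition proteins (PGRPs) are the family through which Drosophila detects and degrades the bacterial cell wall. The genes described here were chosen by symbol, as 10 of the 13 PGRP genes among the 16837 genes in the files. The other 3, PGRP-LD, PGRP-SB2 and PGRP-SC1b, are brought in only where they bear on a member. Values are TPM, a transcript abundance scaled by length and to a fixed library total. Levels can be compared between genes, but between libraries only as shares of that total, which also depend on what else a library holds.

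Per the labels, RNA came from heads of virgin Drosophila melanogaster females aged 10 days, in 3 genotypes with 3 libraries each. The group labelled wild type carries Chd1[WT/WT] in its titles, and the Chd1-deficient group, titled Chd1[-/-], is labelled as deficient in this chromatin remodeller. The remaining group, here elav>Chd1, is titled elav-Gal4>UAS-Chd1 and labelled as rescued. Its UAS-Chd1 transgene is driven by elav-Gal4, a driver for neurons, and the tissues in which it was expressed here are not known. The labels do not state whether elav>Chd1 flies carry the deletion, and the series text names Chd1-rescued flies but no wild type, so what the group labelled wild type carries is not certain. The labels do not say whether libraries of 1 genotype are from different flies, so the p-values below may reflect technical spread alone.

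Some PGRPs are receptors that start an immune response and others are amidases that cut peptidoglycan and so limit that response. Peptidoglycan of the diaminopimelic acid type, found in Gram-negative bacteria, acts through the Imd pathway and the factor Relish, and peptidoglycan of the lysine type acts through the Toll pathway. In the fly these genes are known from fat body, gut and blood cells more than from neurons, and several are themselves induced by infection.

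Libraries summed to 999685 to 999850 TPM, and their read depth is unknown. Genes at 1 TPM or more numbered 9159 to 9253 in wild type, 9743 to 9787 in elav>Chd1 and 11142 to 11220 in Chd1-deficient libraries. The make-up of the libraries thus differed, and its part in small differences of share was not tested. Chd1 was at 101.6 ± 8.12 TPM in wild type, 63.5 ± 0.314 TPM in elav>Chd1 and 19.5 ± 1.07 TPM in Chd1-deficient libraries (mean ± SD, n = 3 each, as for all levels given in this form). The labelled tissue and sex did not match the transcripts fully. All 8 head markers were detected, led by the opsin gene ninaE, but elav and repo, which mark neurons and glia, were only at 1.11 and 0.592 TPM in wild type, and 7 ovary and eggshell markers summed to 12431 to 13853 TPM in wild type, 15773 to 16748 TPM in elav>Chd1 and 14524 to 15345 TPM in Chd1-deficient libraries. Most of that sum was Vm26Aa and Vm26Ab, which were higher in Chd1-deficient than in wild-type libraries, while the other 5 markers were lower (median of the 7 log2 fold changes -0.57). By the test given below, 42.9% of all genes tested were higher and 46.0% lower. The 8 head markers summed to 926.3 to 988.0, 1560 to 1607 and 3803 to 3890 TPM in the same order, and 6 male markers to 15.5 to 18.2, 6.31 to 6.93 and 191.2 to 210.2 TPM. No PGRP level can therefore be assigned to head tissue or to females alone. In bulk RNA, fewer cells of a type and less RNA per cell cannot be told apart.

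Of the 10 PGRP genes, 7 were higher and 3 lower in Chd1-deficient than in wild-type libraries. The largest rises were those of the amidase gene PGRP-SB1, 4.74-fold in mean TPM, and of PGRP-SD, 5.14-fold. The 3 falls were in PGRP-SC1a, PGRP-SC2 and PGRP-LE. That of PGRP-SC1a did not hold for the sum with its near-identical copy PGRP-SC1b. The sum was at 27.0 ± 1.21 TPM in wild type and 41.8 ± 3.04 TPM in Chd1-deficient libraries. Set against elav>Chd1, the Chd1-deficient libraries had 7 members higher and 3 lower. Both comparisons use the same Chd1-deficient libraries. A gene counts as higher or lower at a limma adjusted p (Benjamini-Hochberg over 11094 genes) under 0.05. Calls were frequent among all genes tested, with 42.9% higher and 46.0% lower against wild type, and 34.7% higher and 33.7% lower against elav>Chd1. A log2 fold change of at least 1, on the log2(TPM + 0.5) scale used for all fold changes below, was reached by 7 of 10 PGRP genes against wild type (27.1% of all genes tested) and by 2 of 10 against elav>Chd1 (15.8%). All 10 genes passed the filter on low values, and 9 of them lay at or above 1 TPM in every library. The exception was PGRP-LF, which lay under 1 TPM in wild-type libraries 1 and 2.

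**Figure D1:**
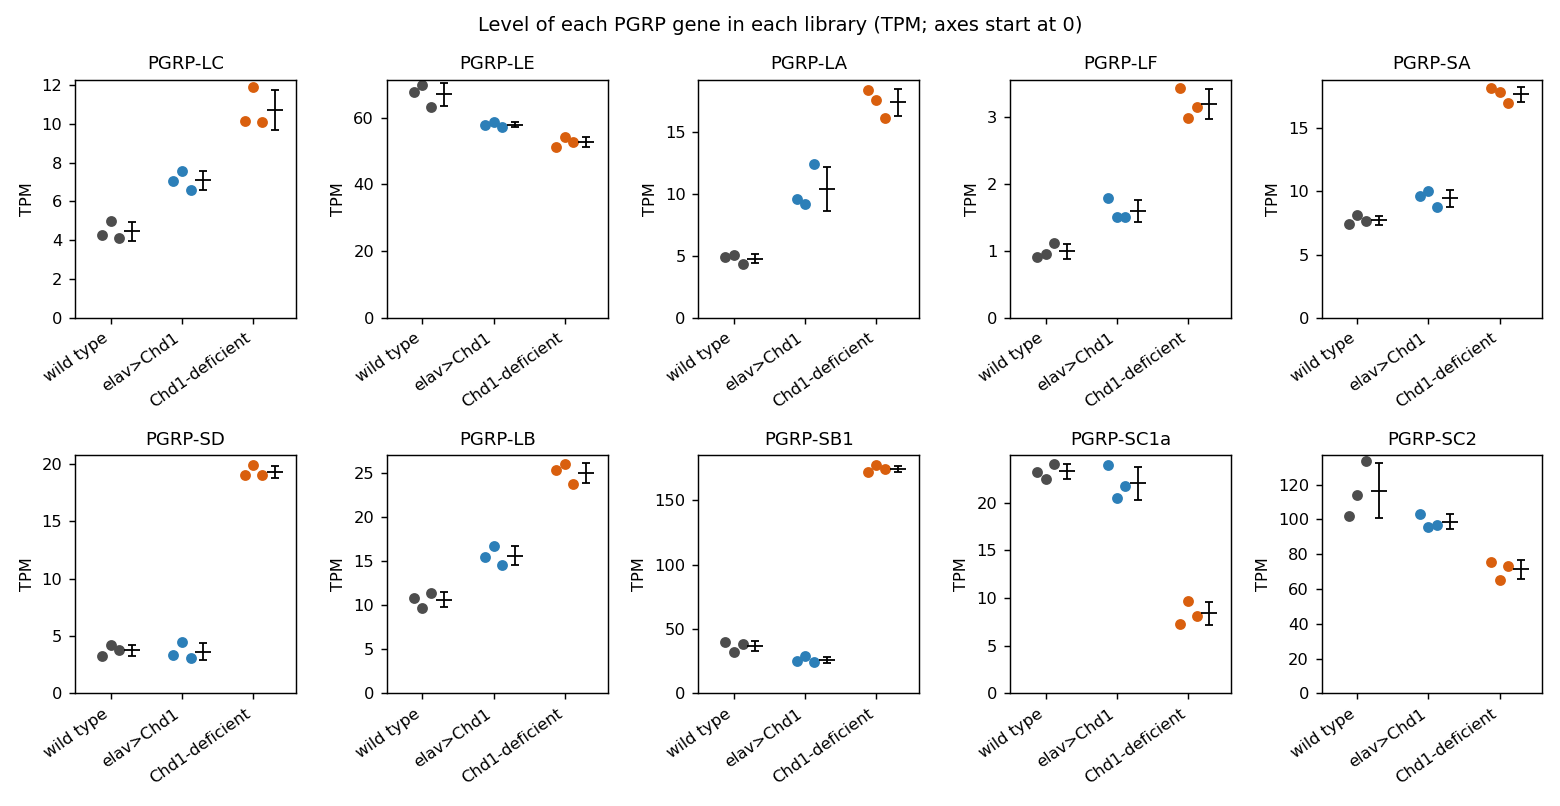
TPM of each of the 10 PGRP genes in each of the 9 libraries (coloured points, 3 per genotype), with the mean and SD of each genotype (black bars). The vertical axes start at 0 and differ between genes. For every gene the Chd1-deficient libraries lie outside the range of both other genotypes, above it for 7 genes and below it for PGRP-LE, PGRP-SC1a and PGRP-SC2. Over all genes tested, Chd1-deficient libraries did not overlap wild type for 88.3% and elav>Chd1 for 77.1%. The share outside both at once was not counted.

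The receptors of the Imd pathway moved in opposite directions. PGRP-LC, the transmembrane receptor that starts Imd signalling, was at 4.28, 5.0 and 4.10 TPM in wild-type, at 7.08, 7.57 and 6.60 TPM in elav>Chd1 and at 10.1, 11.9 and 10.1 TPM in Chd1-deficient libraries. The 3 genotypes formed 3 separate ranges with elav>Chd1 in the middle. Relative to wild type the log2 fold change was 1.18 in Chd1-deficient (SE 0.10, limma, adjusted p = 7.6e-07) and 0.62 in elav>Chd1 libraries (SE 0.10, limma, adjusted p = 2.0e-04). Chd1-deficient libraries exceeded elav>Chd1 by 0.56 (SE 0.10, limma, adjusted p = 4.6e-04). PGRP-LC (FBgn0035976) has 10 annotated transcripts, among them isoforms with different peptidoglycan-binding domains, and the files give 1 value for the gene.

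PGRP-LE, the sensor that also works inside cells, was the most abundant of the receptors. Its libraries read 67.8, 69.9 and 63.2 TPM in wild type, 57.8, 58.7 and 57.2 TPM in elav>Chd1 and 51.1, 54.2 and 52.5 TPM in Chd1-deficient flies. The ranges did not overlap, although the steps were small. Log2 fold changes were -0.34 (SE 0.04, limma, adjusted p = 2.3e-05) for Chd1-deficient and -0.21 (SE 0.04, limma, adjusted p = 0.0014) for elav>Chd1, both against wild type. Between Chd1-deficient and elav>Chd1 it was -0.14 (SE 0.04, limma, adjusted p = 0.017), and that call was lost without Chd1-deficient replicate 1 (adjusted p = 0.071), Chd1-deficient replicate 3 (0.050, just over the threshold) or elav>Chd1 replicate 2 (0.061).

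The regulators without amidase activity were both higher. PGRP-LA, which lacks the ability to bind peptidoglycan and has been linked to Imd activation in barrier epithelia, was at 4.91, 5.09 and 4.34 TPM in wild-type, at 9.59, 9.17 and 12.4 TPM in elav>Chd1 and at 18.4, 17.6 and 16.1 TPM in Chd1-deficient libraries. Each genotype stood apart from the next, and elav>Chd1 replicate 3 was the highest of its group. Against wild type the log2 fold change was 1.76 (SE 0.11, limma, adjusted p = 1.3e-07) in Chd1-deficient and 1.04 (SE 0.11, limma, adjusted p = 1.8e-05) in elav>Chd1 libraries, the only member to reach 1 in the latter comparison (7.19% of all genes tested did, in this direction). PGRP-LF, a membrane protein that blocks PGRP-LC, was the least abundant member in all 3 genotypes. It read 0.905, 0.956 and 1.11 TPM in wild-type, 1.78, 1.51 and 1.5 TPM in elav>Chd1 and 3.43, 2.99 and 3.14 TPM in Chd1-deficient libraries. Chd1-deficient exceeded wild type by 1.31 log2 units (SE 0.10, limma, adjusted p = 6.2e-07), which understates the change of so low a gene.

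PGRP-LA, PGRP-LC and PGRP-LF are neighbours on chromosome arm 3L and lie on the same strand. By Ensembl's gene models for BDGP6.54 (dm6), from which all positions here are taken, they span 9334332 to 9338336, 9338810 to 9348336 and 9349609 to 9351489, with gaps of 473 and 1272 bases and no annotated gene between them. The files hold no coordinates, and the authors' table gives the same gene identifiers (FBgn0035975, FBgn0035976 and FBgn0035977). All 3 genes had the order wild type, elav>Chd1, Chd1-deficient, as did PGRP-SA on X and PGRP-LB on 3R. The order was thus not particular to these neighbours. Exons of PGRP-LF overlap those of UGP on the opposite strand, and the sources do not say whether strand was used in quantification. UGP went the other way, from 150.9 ± 13.0 TPM in wild type to 69.4 ± 2.93 TPM in Chd1-deficient libraries.

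The recognition proteins tied to the Toll pathway were higher in Chd1-deficient libraries, and differed in how elav>Chd1 stood. PGRP-SA (FBgn0030310; X, 11561643 to 11562779), the circulating sensor of lysine-type peptidoglycan, was at 7.39, 8.11 and 7.63 TPM in wild-type, at 9.61, 10.0 and 8.73 TPM in elav>Chd1 and at 18.2, 17.9 and 17.0 TPM in Chd1-deficient libraries. The 3 ranges were separate, with elav>Chd1 much nearer to wild type. In log2 terms the change was 1.15 (SE 0.07, limma, adjusted p = 8.7e-08) for Chd1-deficient and 0.28 (SE 0.07, limma, adjusted p = 0.0038) for elav>Chd1, each against wild type.

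PGRP-SD (FBgn0035806; 3L, 7651180 to 7651900) is a secreted protein first linked to Toll recognition and later also to the Imd response. It was at 3.22, 4.22 and 3.82 TPM in wild-type, at 3.36, 4.51 and 3.06 TPM in elav>Chd1 and at 19.0, 19.9 and 19.0 TPM in Chd1-deficient libraries. Wild type and elav>Chd1 overlapped, and the Chd1-deficient libraries lay far above both. The log2 fold change was 2.23 (SE 0.13, limma, adjusted p = 7.1e-08) against wild type and 2.27 (SE 0.13, limma, adjusted p = 1.2e-07) against elav>Chd1. Between elav>Chd1 and wild type it was -0.05, with a 95% interval from -0.33 to 0.24 (limma, adjusted p = 0.74). The gene lies within an intron of CG32373 on the same strand and shares 35 bases with CG7492 on the other, and both of these neighbours were lower in Chd1-deficient than in wild-type libraries (log2 fold changes -0.61 and -0.47, limma, adjusted p = 9.5e-05 and 4.7e-06).

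Of the 4 amidase genes, 2 were higher and 2 lower in Chd1-deficient libraries against either other group. PGRP-SB1 (FBgn0043578; 3L, 16727299 to 16727989), a secreted amidase, was at 39.9, 32.6 and 38.1 TPM in wild-type, at 25.3, 29.0 and 24.7 TPM in elav>Chd1 and at 172.3, 177.4 and 174.3 TPM in Chd1-deficient libraries. It was the most abundant PGRP gene in Chd1-deficient libraries, while PGRP-SC2 and PGRP-LE stood above it in both other genotypes. The log2 fold change between Chd1-deficient and elav>Chd1 was 2.71 (SE 0.08, limma, adjusted p = 8.7e-10), the largest of any member in any comparison. PGRP-SB1 was lower in elav>Chd1 than in wild type (log2 fold change -0.48, SE 0.08, limma, adjusted p = 2.6e-04). PGRP-SB2, whose annotated end lies 10 bases from PGRP-SB1, was listed at 0 in 8 of 9 libraries and at 0.097 TPM in Chd1-deficient replicate 3.

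PGRP-LB (FBgn0037906; 3R, 11452849 to 11460552), an amidase that dampens the Imd response in the gut and beyond, was at 10.8, 9.66 and 11.3 TPM in wild-type, at 15.5, 16.7 and 14.6 TPM in elav>Chd1 and at 25.2, 26.0 and 23.7 TPM in Chd1-deficient libraries. The genotypes did not overlap, and elav>Chd1 lay in the middle. Its log2 fold changes against wild type were 1.20 (SE 0.07, limma, adjusted p = 1.1e-07) in Chd1-deficient and 0.54 (SE 0.07, limma, adjusted p = 8.4e-05) in elav>Chd1 libraries. PGRP-LB lies within the span of CG17230 on the opposite strand, with no shared exon.

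PGRP-SC2, a gut amidase gene on chromosome arm 2R, was the most abundant member in wild type and elav>Chd1. It was at 102.0, 114.2 and 133.3 TPM in wild-type, at 103.4, 95.4 and 96.9 TPM in elav>Chd1 and at 75.5, 65.2 and 73.0 TPM in Chd1-deficient libraries. The Chd1-deficient libraries lay below all others, while wild type and elav>Chd1 overlapped. The log2 fold change was -0.70 (SE 0.09, limma, adjusted p = 2.1e-05) against wild type and -0.47 (SE 0.09, limma, adjusted p = 8.8e-04) against elav>Chd1. Between elav>Chd1 and wild type it was -0.23 (SE 0.09, limma, adjusted p = 0.033). That last call was lost without wild-type replicate 2 or 3 or elav>Chd1 replicate 2 or 3 (adjusted p between 0.058 and 0.11), and leaving out wild-type replicate 3 took the fold change to -0.13.

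**Figure D2:**
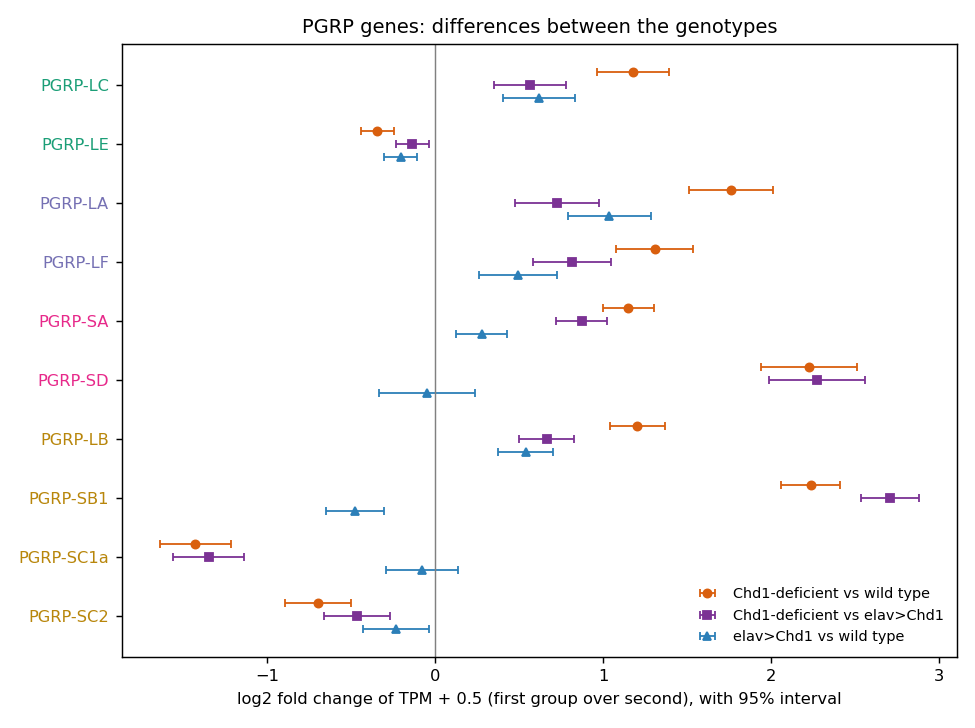
Log2 fold change of each PGRP gene on the log2(TPM + 0.5) scale in the 3 comparisons (first group over second), with 95% intervals from limma over all 9 libraries; label colours mark the roles, receptors, regulators, Toll recognition and amidases from top to bottom. PGRP-SD and PGRP-SC1a differ in both comparisons with Chd1-deficient libraries and have intervals that include 0 between elav>Chd1 and wild type.

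PGRP-SC1a (FBgn0043576), also on 2R, fell in the Chd1-deficient libraries, but its value depends on a near-identical copy. It was at 23.3, 22.5 and 24.1 TPM in wild-type, at 23.9, 20.5 and 21.7 TPM in elav>Chd1 and at 7.29, 9.74 and 8.12 TPM in Chd1-deficient libraries. The log2 fold change was -1.43 (SE 0.10, limma, adjusted p = 1.9e-07) against wild type and -1.35 (SE 0.10, limma, adjusted p = 6.4e-07) against elav>Chd1. Wild type and elav>Chd1 overlapped and differed by -0.08, with a 95% interval from -0.29 to 0.13 (limma, adjusted p = 0.47). PGRP-SC1b (FBgn0033327), which lies 3125 bases away and encodes a near-identical protein, with CG14743 annotated between them, went the other way. It was at 4.23, 5.39 and 1.51 TPM in wild-type, at 18.1, 18.8 and 16.5 TPM in elav>Chd1 and at 34.0, 35.4 and 31.0 TPM in Chd1-deficient libraries. Chd1-deficient libraries exceeded wild type by 3.15 log2 units (SE 0.31, limma, adjusted p = 2.8e-06).

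The make-up of the pair changed more than its total. PGRP-SC1a made 80.7% to 94.1% of the summed TPM of both copies in wild type, 52.2% to 56.9% in elav>Chd1 and 17.7% to 21.6% in Chd1-deficient libraries, 3 ranges that did not overlap. Added up, both copies came to 27.0 ± 1.21 TPM in wild type, 39.9 ± 1.94 TPM in elav>Chd1 and 41.8 ± 3.04 TPM in Chd1-deficient libraries. The sum, tested as 1 gene after the values of the copies were seen, exceeded wild type by 0.62 log2 units in Chd1-deficient (SE 0.06, limma, adjusted p = 3.2e-06) and by 0.55 in elav>Chd1 libraries (SE 0.06, limma, adjusted p = 2.2e-05). Between the latter groups the sum differed by 0.07, with a 95% interval from -0.07 to 0.20 (limma, adjusted p = 0.35). The fall of PGRP-SC1a thus did not hold for the pair, and how reads were divided between the copies was not tested.

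**Figure D3:**
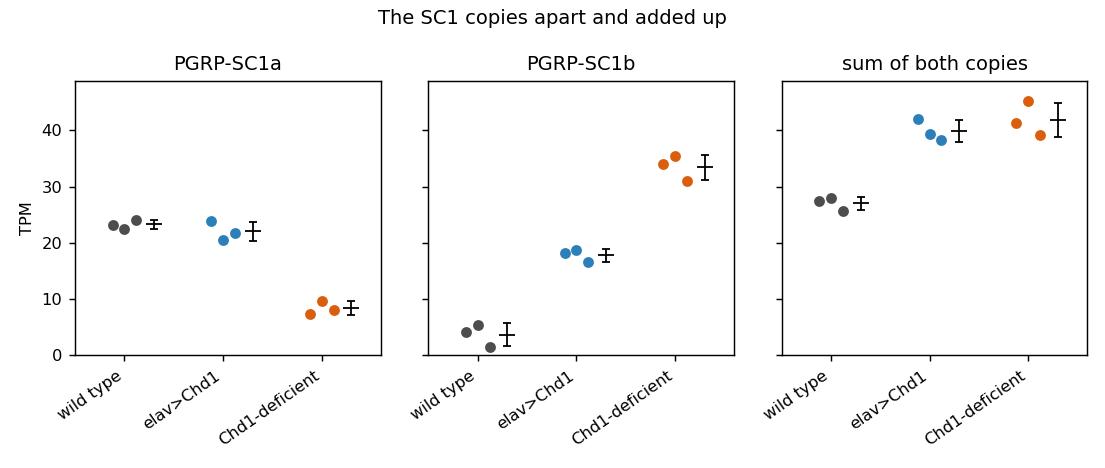
TPM of PGRP-SC1a, of PGRP-SC1b and of both added up, in each library (points, 3 per genotype) with mean and SD (black bars) on a shared axis from 0. PGRP-SC1a is lowest and PGRP-SC1b highest in Chd1-deficient libraries, and the sum is lowest in wild type, at 27.0 ± 1.21 TPM.

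For 8 of the 10 genes the mean log2 level of elav>Chd1 lay between those of the other genotypes, and for PGRP-SB1 and PGRP-SD it lay below both. How many of all genes tested had either order was not counted. For PGRP-SC1a and PGRP-SD the difference between elav>Chd1 and wild type was not called (limma, adjusted p = 0.47 and 0.74), so their place beside wild type is not settled. In the comparison of elav>Chd1 with wild type, 5 genes were higher (30.6% of all genes tested were) and 3 lower (47.3% of all). The higher ones were PGRP-LA, PGRP-LC, PGRP-LF, PGRP-LB and PGRP-SA, and the lower ones PGRP-SB1, PGRP-LE and PGRP-SC2. Libraries did not overlap between these groups for 7 of 10 genes, against 78.3% of all genes tested. The median log2 fold change was 0.11 over the 10 genes and -0.15 over all genes. Against wild type, Chd1-deficient libraries had medians of 1.19 and -0.05 and no overlap for 10 of 10 genes (88.3% of all), and against elav>Chd1 0.69 and -0.02, again without overlap for 10 of 10 (77.1% of all).

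The order of the genes by level differed most at the top and in the middle. In wild type it ran from PGRP-SC2 through PGRP-LE, PGRP-SB1, PGRP-SC1a, PGRP-LB and PGRP-SA to PGRP-LA, PGRP-LC, PGRP-SD and PGRP-LF, and PGRP-LC overlapped both its neighbours, PGRP-LA and PGRP-SD. In Chd1-deficient libraries PGRP-SB1 led, PGRP-SD stood just below PGRP-LB, PGRP-SC1a was above PGRP-LF alone, and of neighbours in the order PGRP-SA and PGRP-LA overlapped. In elav>Chd1 libraries the order was that of wild type except that PGRP-LA stood above PGRP-SA, with overlap. The 10 genes summed to 264.4 to 291.1 TPM in wild type, 247.5 to 257.3 TPM in elav>Chd1 and 397.0 to 402.7 TPM in Chd1-deficient libraries. PGRP-SB1 made 43.0% to 44.0% of that sum in Chd1-deficient libraries, against 12.0% to 15.1% in wild type and 9.84% to 11.5% in elav>Chd1. PGRP-SC2 went from 38.6% to 45.8% in wild type to 16.2% to 18.9% in Chd1-deficient libraries.

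**Figure D4:**
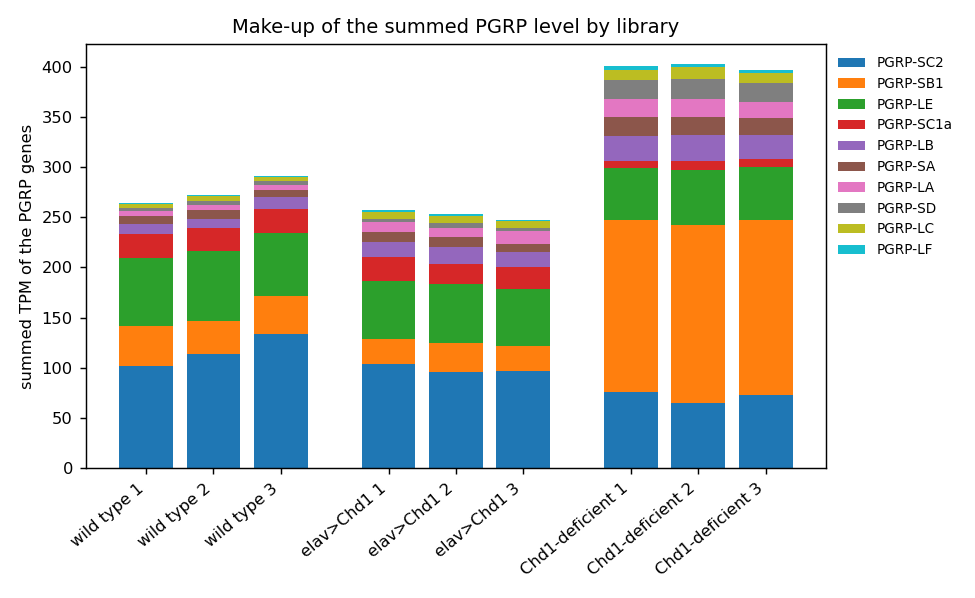
Summed TPM of the 10 PGRP genes in each library (bars, from 0), split by gene. The Chd1-deficient bars reach 397.0 to 402.7 TPM with PGRP-SB1 as the largest part, and PGRP-SC2 is the largest part in the other genotypes.

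By the shape of their values over the 9 libraries (Euclidean distance of log2 values centred on each gene's mean, among 7948 genes with a mean of at least 5 TPM), the genes most like PGRP-SB1 were Lsp1beta (distance 0.284), IM14 (0.430) and CG18067 (0.529). Lsp1beta encodes a storage protein made by the fat body, and IM14 an immune-induced peptide. IM14 stood at 132.4 TPM in wild type, 98.0 TPM in elav>Chd1 and 527.6 TPM in Chd1-deficient libraries. The most like PGRP-SC2 were CG32536 (0.211), Ing3 (0.256) and HP1c (0.274), a chromatin protein of the HP1 family.

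Genes of the signalling steps downstream of the PGRP receptors were mostly lower in Chd1-deficient than in wild-type libraries, as were many other genes. Among all genes tested, 46.0% were lower and 42.9% higher. These shares depended on the filter on low values. With a filter of 10 TPM in 3 libraries, 4854 of 7472 genes were lower and 1855 higher. The median log2 fold change of all 7472 was -0.32. Of 12 core Imd genes, from the adaptor imd to the factor Rel, 10 were lower and none higher in Chd1-deficient than in wild-type libraries by limma, with a median log2 fold change of -0.43. The 2 not called were imd and Rel, at 0.02 and 0.09, and with median-ratio scaling 1 of the 12 genes was called higher. The ubiquitin-conjugating enzyme genes eff and Uev1A had the smallest p of the called ones, with levels of 966.6 ± 33.0 and 540.1 ± 11.9 TPM in wild type against 707.9 ± 17.5 and 397.2 ± 9.77 TPM in Chd1-deficient libraries. Both serve other cellular pathways as well. Of 7 negative regulators of Imd, 4 were lower and 2 higher. The higher ones were pirk, an inhibitor that binds PGRP-LC, from 3.29 ± 0.362 to 9.14 ± 0.272 TPM, and dnr1, from 4.08 ± 0.257 to 10.5 ± 0.621 TPM. In elav>Chd1 libraries pirk stood at 3.71 ± 0.186 TPM.

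The extracellular arm of Toll, in which PGRP-SA acts, was mostly higher. Of 9 genes from the recognition proteins to the ligand spz, 8 were higher and only spz was lower in Chd1-deficient than in wild-type libraries (median 1.14). The shares of all genes tested were 42.9% higher and 46.0% lower. SPE, the protease that cleaves spz protein, went from 7.31 ± 0.597 to 30.7 ± 1.16 TPM, and nec, a serpin that restrains the cascade, from 17.2 ± 1.29 to 46.4 ± 1.18 TPM. Of 7 genes of the intracellular Toll core, 6 were lower and 1 was higher, the factor Dif, from 6.44 ± 0.631 to 12.1 ± 0.533 TPM. The inhibitor cact fell from 363.1 ± 11.9 to 262.3 ± 3.35 TPM.

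Peptide genes at the far end of both pathways had higher medians than the PGRP genes in the comparisons with Chd1-deficient libraries, and lower ones between elav>Chd1 and wild type (-0.31 for Imd and -0.52 for Toll targets). All 12 Imd target peptides were higher in Chd1-deficient libraries against wild type (median 3.53) and against elav>Chd1 (median 3.97), and they summed to 201.9 to 232.8 TPM in wild type, 149.7 to 153.0 TPM in elav>Chd1 and 2723 to 2934 TPM in Chd1-deficient libraries. AttC, an attacin, was at 21.9 ± 1.79, 13.1 ± 0.510 and 224.1 ± 1.01 TPM in that order, and AttA at 11.0 ± 0.778, 10.1 ± 0.238 and 134.0 ± 3.18 TPM. Of 6 Toll target peptides 5 were higher against wild type and 6 against elav>Chd1 (medians 1.71 and 2.0), and IM2 was the one not called, at -0.03. The shares of all genes tested that were higher were 42.9% and 34.7%. Among the Toll targets IM23 went from 22.9 ± 2.13 TPM in wild type to 190.2 ± 15.4 TPM in Chd1-deficient libraries, and IM1 from 168.1 ± 7.89 to 535.2 ± 7.18 TPM. Between elav>Chd1 and wild type, 6 of the 12 Imd targets were lower and none higher by limma, and 4 of the 6 Toll targets were lower and 1 higher. Among all genes tested, 47.3% were lower and 30.6% higher there, so the count of lower Imd targets was near the general share.

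**Figure D5:**
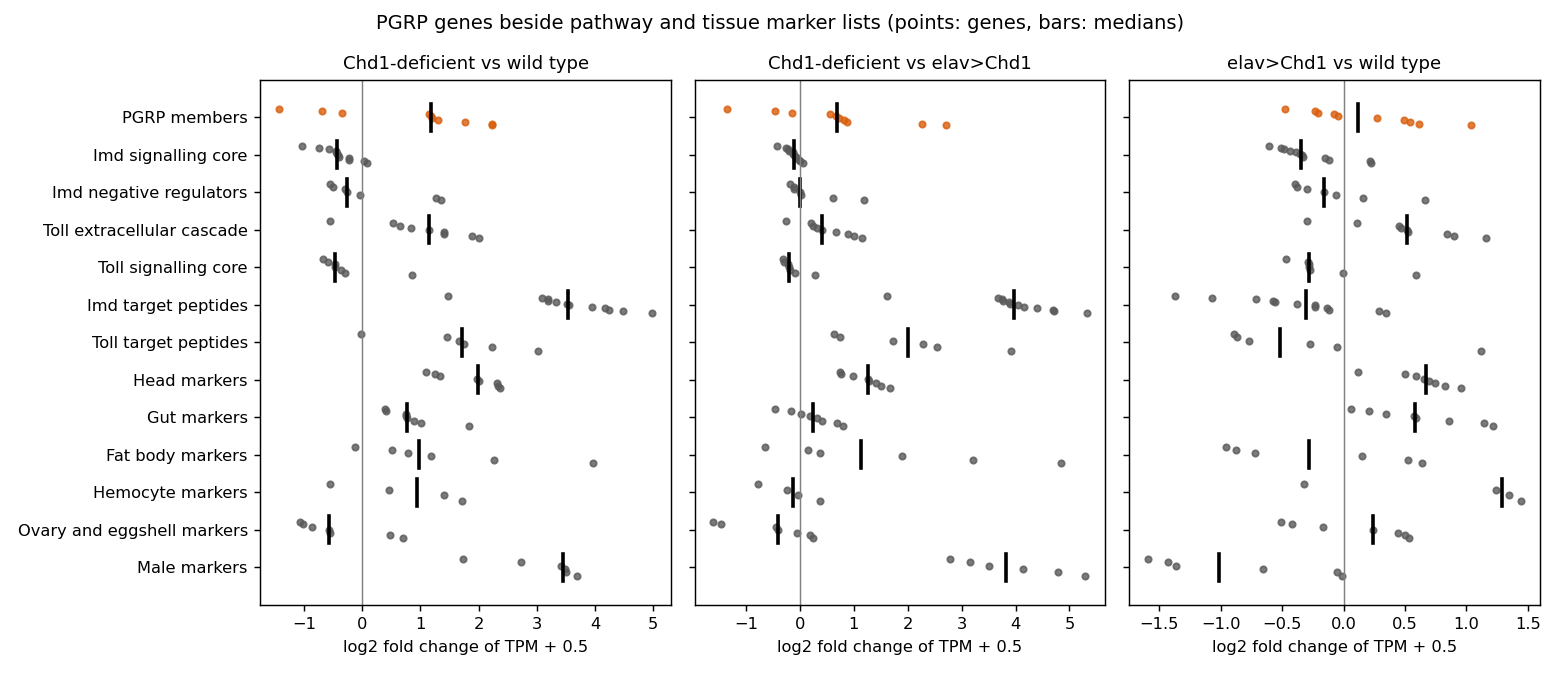
Log2 fold change of every tested gene of the PGRP family members (orange), of the pathway lists and of the tissue marker lists (grey points), with the median of each list (black bars), in the 3 comparisons; the horizontal axes differ. The PGRP median of 1.19 against wild type lies below those of the head markers (1.99) and the Imd target peptides (3.53).

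Transcripts of several tissues moved with the same groups. Against wild type, all 8 head markers (median log2 fold change 1.99), all 8 gut markers (0.77), 5 of 6 fat body markers (0.98) and all 6 male markers (3.45) were higher in Chd1-deficient libraries. Among all genes tested the share was 42.9%. The male markers dj and roX2, the fat body marker Fbp1 and the head marker repo passed the filter on low values only through the Chd1-deficient libraries. Their calls as higher are therefore no separate evidence, and they enter these counts and medians. The fat body markers summed to 404.1 to 415.2 TPM in wild type, 258.7 to 263.7 TPM in elav>Chd1 and 1498 to 1536 TPM in Chd1-deficient libraries, and most of the last sum was fit. Lsp2, Fbp1 and fit had the order of genotypes of PGRP-SB1. The order was not particular to fat body markers, as the means of the male markers and of AttC, IM1 and IM23 had it too. For 2 of the male markers the difference between elav>Chd1 and wild type was not called. Of the other fat body markers, apolpp and Apoltp had elav>Chd1 in the middle, and to was highest in elav>Chd1. The gut markers summed to 2450 to 2789, 4312 to 4359 and 4454 to 4625 TPM in the same order. Single gut markers differed in this, as 5 were higher and 2, yip7 and Jon65Aiv, were lower in Chd1-deficient than in elav>Chd1 flies. The shares of all genes tested in that comparison were 34.7% higher and 33.7% lower. Of 9 hemocyte markers, Hml, NimC1, eater and He lay under 1 TPM in every library, and the list summed to 127.2 to 136.7, 110.6 to 119.2 and 96.7 to 105.7 TPM, nearly all of it from crq. Of the 4 hemocyte markers tested, crq was lower and Pxn, PPO1 and PPO2 were higher against wild type (median 0.94). No marker of these lists was at 0 in every library. The part of these tissues in the PGRP differences was not tested.

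The authors' deposited table, restricted to log2 fold changes of at least 1 in size, lists 8 of the 10 members for Chd1-deficient against wild type, 7 of them higher, and 4 for Chd1-deficient against elav>Chd1, 3 of them higher. All had the same sign here. For PGRP-SB1 the authors' deposited table gives log2 fold changes of 2.32 and 2.74, and for PGRP-SC1a -1.41 and -1.39, in this order. In the same table PGRP-LF reaches 1.75 against wild type, above the 1.31 found on the log2(TPM + 0.5) scale.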

How the data were processed

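The files hold 1 TPM value per gene and library, made by the authors before deposit. Per the submitters' processing notes, Salmon and DESeq2 were used, with no version or role. These notes name no genome build. The 2 tables deposited by the authors list log2 fold changes with standard errors, a test score and p-values, per the file headers. Only their fold changes are quoted.

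Libraries were grouped by their titles. Values were transformed to log2(TPM + 0.5) and fitted with limma-trend 3.58.1 (R 4.3.3) over all 9 libraries, 1 mean per genotype, without a batch term, since none is labelled. The 11094 genes that reached 1 TPM in 3 or more libraries were tested, and p-values adjusted over all of them. The procedure was tested on simulated data. Read depth is unknown, so no counting interval is given, and 3 libraries per group limit the precision. Locations come from Ensembl release 115 (BDGP6.54). Sequences were not used here. Alternatives were other filters and pseudocounts (0.1 and 1), pairwise fits, median-ratio scaling, a replicate block, each library left out and a fold threshold; adding up the SC1 copies was chosen after seeing the data.

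Members and lists were chosen with earlier results of these data known. All members are named; in each pathway list, the 2 called genes with the smallest p against wild type. UGP, CG32373, CG7492 and CG17230 were named for their overlap with members. For likeness, the 3 nearest genes to the member with the widest range of group means and to the most abundant one are given. Figures were drawn with matplotlib 3.10.9 (Python 3.11.15).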

Additional observations from a re-analysis of the deposited data

How the results depend on the processing

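With any single library left out, 7 PGRP genes were called higher in Chd1-deficient libraries against either other group. The count lower was 3 against wild type and 2 to 3 against elav>Chd1. Of all genes tested against wild type, 3605 of 10037 were higher and 4985 lower without Chd1-deficient replicate 3. Without elav>Chd1 replicate 1 these were 4737 higher and 5086 lower of 11040. Against elav>Chd1 they were 2567 higher and 3497 lower of 10034 without Chd1-deficient replicate 2, and 4037 and 4255 of 11071 without wild-type replicate 3. For elav>Chd1 against wild type, 5 members were higher and 2 to 3 lower when 1 library was left out. Without elav>Chd1 replicate 2, for example, 3158 of all 11028 genes tested were higher there and 4993 lower. A filter of 10 TPM in 3 libraries removed PGRP-LF. A threshold of 1 on the size of the log2 fold change left 1 gene lower against wild type (PGRP-SC1a), 2 higher and 1 lower against elav>Chd1, and 1 higher and 0 lower for elav>Chd1 against wild type. Among all genes tested, 15.8% were higher by this threshold against elav>Chd1 and 7.19% for elav>Chd1 against wild type. The shares lower by it were not counted. With the SC1 copies added up, the value in place of PGRP-SC1a turned to 0.62 against wild type, 0.067 against elav>Chd1 and 0.55 for elav>Chd1 against wild type. PGRP-SD, not called between elav>Chd1 and wild type, ranged from -0.19 to 0.054 when 1 library was left out, and changed sign without wild-type replicate 2 (0.03) or elav>Chd1 replicate 3 (0.054); the cause was not tested. PGRP-SC2 lost its call between those groups with no filter (adjusted p = 0.056) and with median-ratio scaling (0.16). Same-numbered libraries of different genotypes deviated together with correlations from -0.155 to 0.108, and differently numbered ones with correlations from -0.151 to 0.18. These values give no sign of pairing by number but cannot exclude it. A replicate block in the fit changed the call of none of the 30 member differences. With the block, 7 members were called higher and 3 lower in Chd1-deficient libraries against wild type. Of all 11094 genes tested, 4737 were higher and 5084 lower in that fit. Depth is unknown, so how far it limits PGRP-LF, the lowest gene, cannot be given.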
